A study of Arabidopsis thaliana with 24 samples.

Results

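The nuclear genome of Arabidopsis encodes the light-harvesting antenna proteins of both photosystems and many of the smaller subunits of photosystem I (PSI) and photosystem II (PSII). The 44 genes described here were taken by locus from a list of these families: 21 antenna genes (LHCA1 to LHCA6 and the LHCB1 to LHCB7 genes), 12 PSI subunit genes (PSAD, PSAE, PSAF, PSAG, PSAH, PSAK, PSAL, PSAN and PSAO) and 11 PSII subunit genes (PSBO, PSBP, PSBQ, PSBR, PSBS, PSBW, PSBX, PSBY and PSBTn). All 44 were found among the 32627 genes on the arrays, and the rule that chose them was gene family rather than signal, although it was set with earlier results of these data known. RNA came from detached 3rd or 4th leaves, 12 d after emergence, of ein2/ore3, ahk3/ore12 and wild-type Columbia (Col) plants grown for 21 d under 16 h light and 8 h dark, and the leaves were kept in the dark on 3 mM MES. Each genotype was sampled at 0, 1, 2 and 3 days after treatment (DAT), with 2 arrays in each of the 12 conditions, and 0 DAT leaves were the untreated controls. ein2/ore3 carries the ein2-44/ore3-1 allele and is ethylene-insensitive, ahk3/ore12 carries ore12-1, a gain-of-function allele of the cytokinin receptor gene AHK3, and Col carries neither. Each mutant was represented by 1 allele, and both were compared with the same Col arrays.

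Photosystem II oxidises water and photosystem I reduces ferredoxin, and each receives light energy from chlorophyll-binding antenna proteins of the LHC family. LHCA proteins surround PSI; LHCB1, LHCB2 and LHCB3 form the trimers of the major PSII antenna (LHCII), and LHCB4, LHCB5 and LHCB6, also called CP29, CP26 and CP24, link those trimers to the PSII core. The reaction-centre proteins themselves are encoded in the chloroplast and are not described here. The nuclear genes are known as light-dependent genes of mesophyll cells whose transcripts decline in darkness and in senescing leaves. Ethylene promotes leaf senescence and cytokinin delays it.

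Values are log2 intensities, one per gene and array, and a difference of 1 is a 2-fold difference. The median of all genes lay between 9.02 and 9.16 on 23 arrays and was 8.91 on the 2nd array of ein2/ore3 at 2 DAT. At 0 DAT, 31 of the 44 genes were above the 99th percentile of the array on all 6 arrays, close to the strongest signal of a single transcript variant on an array (15.52 to 15.79, above which a gene comes only as a sum of variants), and this position on the scale can make a difference appear smaller than it was. The 2 replicates of the 44 genes differed by a median of 0.08 to 0.13 in 8 of the 12 conditions and of 0.25 to 0.37 in Col at 1 and 2 DAT and in ahk3/ore12 at 2 and 3 DAT. In those 4 conditions the 1st replicate was the lower one for 37 to 42 genes, and the replicate number is also the slide. Mesophyll markers were bright at 0 DAT (RBCS1A 16.17 to 16.33). EIN2 and AHK3, the mutated genes, were measured in every genotype without a difference past the threshold at 3 DAT, so their signals do not separate the genotypes. The senescence marker SAG12 at 3 DAT read 5.32 and 5.25 in ein2/ore3. It read 8.37 and 5.43 in ahk3/ore12, and 13.62 and 13.72 in Col. The genes that mark cell types did not move alike over 3 d, and their changes follow for ein2/ore3, ahk3/ore12 and Col in that order. Among the mesophyll markers, RBCS1A changed by -1.01, -0.97 and -2.21, RBCS3B by -3.55, -2.63 and -3.15, and CA1 by -5.83, -6.47 and -6.46. Against Col at 3 DAT, RBCS1A stood at 1.13 in ein2/ore3 and 1.26 in ahk3/ore12, RBCS3B at -0.22 and 0.62, and CA1 at 0.65 and -0.05, of which -0.22 and -0.05 did not pass the threshold. The phloem marker SUC2 changed by -0.18 (not past the threshold), -0.73 and -2.16. Of the epidermis markers, ATML1 changed by -0.70, -1.37 and -1.86 and ABCG12 by 0.25 (not past the threshold), -0.43 and -1.50. Of the guard cell markers, MYB60 was at -0.62 (not past the threshold), -0.74 and -0.94, while KAT1 (-0.47, 0.08 and 0.04) and FAMA (0.02, -0.04 and -0.07) passed in no genotype. Their part in the results was not tested. In whole leaves, fewer mesophyll cells and less RNA per cell cannot be told apart.

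The first question was how these genes changed in Col. All 44 fell by 2 DAT, and none rose on any day, when 13.3%, 16.7% and 20.2% of all genes were called higher at 1, 2 and 3 DAT. After 1, 2 and 3 DAT, 40, 44 and 44 of the 44 were lower than at 0 DAT (limma, adjusted p under 0.05), when 15%, 17.9% and 19.3% of all 32627 genes were called lower. Their median log2 change was -1.12, -2.28 and -2.84, against 0.08, 0.13 and 0.14 over all genes. The fall at 3 DAT ranged from 2.09-fold to 99.9-fold with a median of 7.18-fold, and it exceeded 4-fold for 32 genes. The antenna genes had a median change of -3.22 (range -6.64 to -1.08), the PSII genes of -2.70 (range -5.48 to -1.07) and the PSI genes of -2.24 (range -4.12 to -1.49), so that the ranges of the 3 groups overlapped. Within the antenna, the 15 LHCB genes had a median of -3.56 and the 6 LHCA genes of -2.37. The order of the group medians was not tested. A moderated F-test for any change among the 4 days in Col (8 arrays) called 43 of the 44 (limma, adjusted p under 0.01), and 15.9% of all genes, with LHCB4.1 at an adjusted p of 0.015. That count dropped to 23 and 25 without the 1st or 2nd Col array of 0 DAT, and to 27 without the 1st Col array of 3 DAT, whereas the count of 44 lower genes at 3 DAT in the fit to all arrays was the same whichever array was left out.

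**Figure D1:**
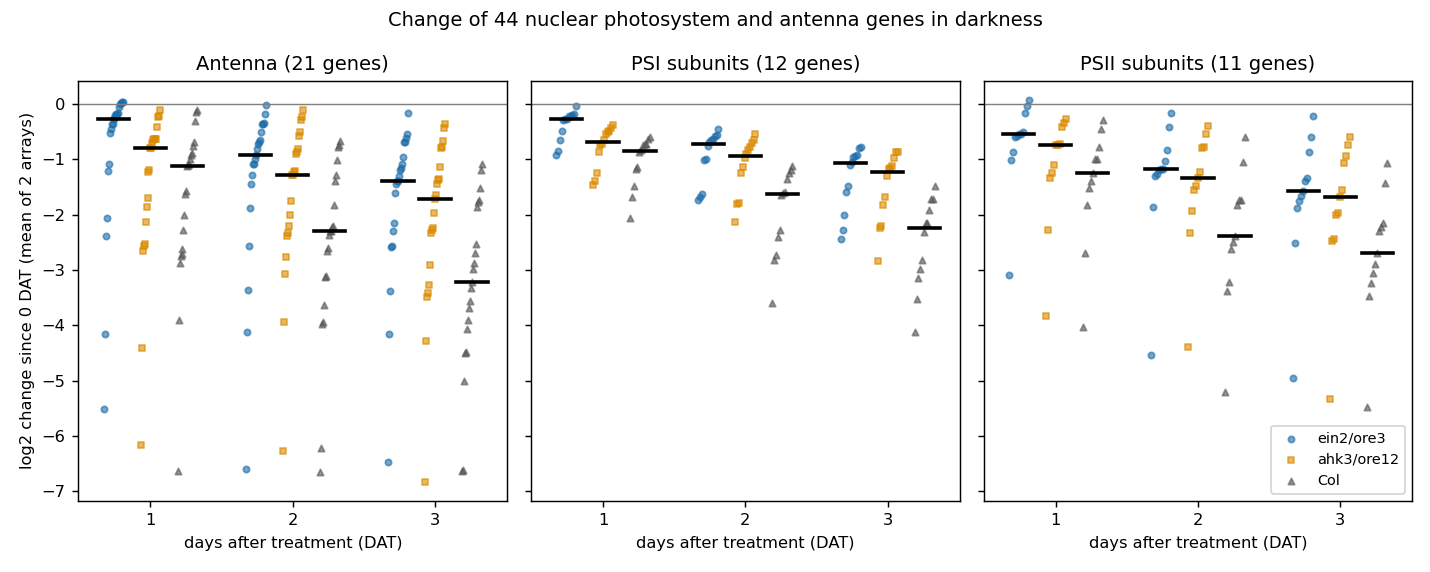
The log2 change since 0 DAT is plotted against the day for the 21 antenna, 12 PSI and 11 PSII genes, with 1 point per gene (mean of 2 arrays), black bars for the group median, and ein2/ore3 left, ahk3/ore12 in the middle and Col right at each day. At 3 DAT the antenna medians are -1.39 in ein2/ore3, -1.72 in ahk3/ore12 and -3.22 in Col.

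Among the antenna genes, LHCA6 (AT1G19150) and LHCB2.4 (AT3G27690) had the largest falls in Col. LHCA6, whose product with that of LHCA5 joins PSI to the NDH complex of cyclic electron flow, was 99.9-fold lower at 3 DAT (-6.64 ± 0.197, SE). LHCB2.4, listed in the reference annotation as LHCB2.3 with LHCB2.4 as a synonym, was 98.6-fold lower (-6.62 ± 0.301). LHCB1.4 (AT2G34430), a gene of the most abundant LHCII protein, was 32.2-fold lower (-5.01 ± 0.346), followed by LHCB3 (AT5G54270) with -4.51, LHCB2.2 (AT2G05070) with -4.49 and LHCB1.5 (AT2G34420) with -4.07. At the other end stood LHCA5 (AT1G45474) with -1.08 ± 0.199 and LHCB4.1 (AT5G01530), a CP29 gene, with -1.20 ± 0.186. The 4 main PSI antenna genes fell by 1.78 (LHCA4 (AT3G47470)), 1.86 (LHCA3 (AT1G61520)), 2.87 (LHCA1 (AT3G54890)) and 3.33 (LHCA2 (AT3G61470)). LHCB5 (AT4G10340) and LHCB6 (AT1G15820), the CP26 and CP24 genes, fell by 3.56 and 2.99, and the rarely described LHCB7 (AT1G76570) by 3.22.

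Of the PSI genes, PSAK (AT1G30380), for a subunit on the side where the antenna binds, fell most. Its change was -4.12 ± 0.159, a 17.4-fold fall. PSAH2 (AT1G52230) and PSAH1 (AT3G16140), whose product is needed for LHCII to dock at PSI in state transitions, changed by -3.53 ± 0.166 and -3.14 ± 0.148. The 2 copies of this subunit thus stood next to each other in the PSI order. The smallest fall was that of PSAD2 (AT1G03130), for the ferredoxin-docking subunit, with -1.49 ± 0.145. PSAE2 (AT2G20260) and PSAD1 (AT4G02770) came next, at -1.72 and -1.72. Between them lay PSAE1 (AT4G28750) (-2.98), PSAN (AT5G64040) (-2.82) and PSAF (AT1G31330) (-2.15), the last 2 for subunits on the plastocyanin side, as well as PSAO (AT1G08380) (-2.32), PSAL (AT4G12800) (-2.15) and PSAG (AT1G55670) (-1.92). In each of the 12 genes both 3 DAT arrays were below both 0 DAT arrays.

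Of the PSII genes, PSBS (AT1G44575), which encodes the protein that switches on energy-dependent quenching of excess light, fell most (44.5-fold, -5.48 ± 0.223). PSBTn (AT3G21055), for a small lumenal subunit, changed by -3.48 ± 0.136, and PSBO2 (AT3G50820), a gene of the manganese-stabilizing protein, changed by -3.24 ± 0.114. The smallest fall among all 44 genes was that of PSBQ2 (AT4G05180), for an extrinsic protein of the oxygen-evolving complex, with -1.07 ± 0.139. PSBR (AT1G79040) changed by -1.42 ± 0.127. The remaining PSII genes were PSBP1 (AT1G06680) (-3.05), PSBX (AT2G06520) (-2.89), PSBW (AT2G30570) (-2.70), PSBY (AT1G67740) (-2.29), PSBQ1 (AT4G21280) (-2.22) and PSBO1 (AT5G66570) (-2.15). The genes of the oxygen-evolving complex thus spanned a 2.09-fold to a 9.44-fold fall.

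Most of these genes fell less in both mutants. In ein2/ore3, 19, 39 and 42 of the 44 were lower at 1, 2 and 3 DAT than at 0 DAT (8.88%, 16.1% and 14.6% of all genes), with median changes of -0.33, -0.99 and -1.39. In ahk3/ore12, 38, 41 and 43 were lower (12.3%, 12.3% and 13.9% of all genes), with medians of -0.74, -1.23 and -1.66. None was higher in ein2/ore3 (13.9%, 14.6% and 17.8% of all genes) or in ahk3/ore12 (13.6%, 17.9% and 20.4%) on any day in limma's test, and 0 were at an unadjusted p under 0.05. LHCB1.3 and PSBQ2 were the 2 genes not past the threshold at 3 DAT in ein2/ore3, with changes of -0.17 and -0.22, and LHCB1.3 was the one in ahk3/ore12, with -0.36 (limma, adjusted p = 0.0561). The ein2/ore3 count at 1 DAT was 12 without the 1st ein2/ore3 array of 0 DAT. On the log2 scale, the change at 3 DAT was a median of 49.2% of the Col change in ein2/ore3 and 56.7% in ahk3/ore12. By complex these medians were 39.5% and 54.9% for the antenna, 50.2% and 59.0% for PSI, and 60.9% and 68.7% for PSII, for ein2/ore3 first and ahk3/ore12 second in each pair. A median of 28.6% of the change at 3 DAT was already present at 1 DAT in ein2/ore3 and 51.8% in ahk3/ore12, against 41.2% in Col. By gene these shares ranged from -32.0% to 103.6% in ein2/ore3, 26.9% to 129.2% in ahk3/ore12 and 5.7% to 185.8% in Col. They include LHCB1.3 and PSBQ2, whose change at 3 DAT did not always pass the threshold, and the order of the genotypes was not tested.

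**Figure D2:**
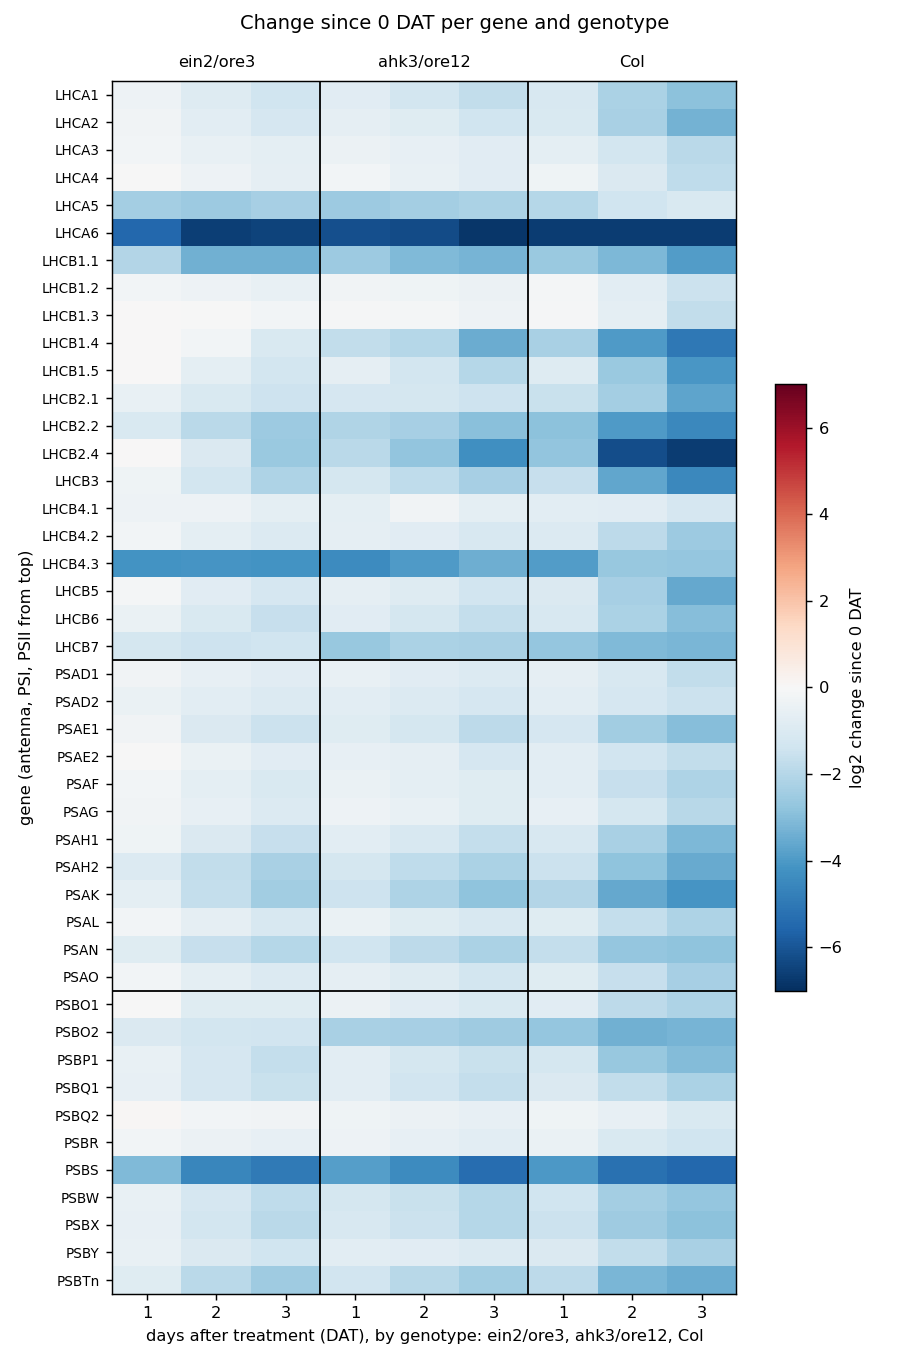
Each row is 1 of the 44 genes and each column a day of ein2/ore3, ahk3/ore12 or Col; colour gives the log2 change since 0 DAT (mean of 2 arrays), blue for lower and red for higher. The row of LHCA6 is dark in all 3 genotypes from 1 DAT on, that of PSBS from 2 DAT on, and LHCB1.3 is pale in both mutants.

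Set against Col on the same day, no gene differed in either mutant at 0 DAT (limma; 0.095% of all genes were called higher and 0.193% lower in ein2/ore3, and 0.0153% higher and 0.00919% lower in ahk3/ore12). At an unadjusted p under 0.05, 1 gene was lower in ein2/ore3 at that time and 0 differed in ahk3/ore12. At 1, 2 and 3 DAT, 33, 38 and 40 of the 44 were higher in ein2/ore3 than in wild type, when 9.66%, 10.4% and 14.4% of all genes were called higher, and the median differences were 0.70, 0.99 and 1.21. On the same days 0, 2 and 2 were lower (3.63%, 9.9% and 10.7% of all genes). The all-gene median of this comparison was -0.17 at 2 DAT and between -0.06 and 0.00 on the other days. In ahk3/ore12, 0, 36 and 37 were higher than Col on the 3 days of darkness (0.325%, 8.84% and 14.7% of all genes), with medians of 0.24, 0.87 and 1.08, and 0, 2 and 1 were lower (0.297%, 3.17% and 8.35%). At 1 DAT the smallest adjusted p in ahk3/ore12 was 0.104, and 10 genes were higher and 1 lower at an unadjusted p under 0.05. The slides gave the same direction for 42, 43 and 43 of the 44 genes in ein2/ore3, and for 34, 43 and 43 in ahk3/ore12. Within the 1st and 2nd slide the medians at 3 DAT were 1.22 and 1.19 for ein2/ore3 over Col, 0.92 and 1.20 for ahk3/ore12 over Col. At 1 DAT those of ein2/ore3 were 0.85 and 0.49. Leaving out single arrays moved several of these counts. Fewer genes were higher in ein2/ore3 at 1 DAT without its 1st array or the 1st Col array of that day. The same held for ahk3/ore12 at 2 DAT without its 2nd array or the 1st Col array of that day. The lower counts also moved, in ein2/ore3 on all 3 days of darkness and in ahk3/ore12 at 2 DAT, as did the higher count of ahk3/ore12 at 1 DAT.

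By complex, 18 of 21 antenna genes were higher and 2 lower in ein2/ore3 than in Col at 3 DAT (median difference 1.37), with all 12 PSI genes (1.10) and 10 of 11 PSII genes (0.90) higher. Of all genes, 14.4% were called higher and 10.7% lower in this comparison. In ahk3/ore12, 16 antenna genes were higher and 1 lower (median 1.31), with 11 PSI genes (1.09) and 10 PSII genes (0.80) higher. Here 14.7% of all genes were called higher and 8.35% lower. The differences of LHCA6 and PSBS did not pass the threshold in either mutant at 3 DAT. In ahk3/ore12 those of LHCB1.1, LHCB4.1, LHCB4.3 and PSAD2 also missed it (adjusted p 0.051, 0.156, 0.223 and 0.0995). A single genotype term over all 4 days called 40 genes higher and 1 lower in ein2/ore3 (10.7% and 8.55% of all genes), and 29 higher and 1 lower in ahk3/ore12 (5.15% and 3.85%). The lower gene was LHCA5 in both, at -0.81 in ein2/ore3 and -0.68 in ahk3/ore12 (adjusted p 0.00435 and 0.0307). This term had no interaction with the day, so a difference that grew from 0 DAT on added to its error. For ahk3/ore12 the count of 29 was 0 with any single 2 or 3 DAT array of ahk3/ore12 or Col removed, 11 without the 1st Col array of 1 DAT, and 13 and 3 without the 1st or 2nd ahk3/ore12 array of 1 DAT. Its lower call of LHCA5 was lost without any array of 2 or 3 DAT of these genotypes or without the 2nd ahk3/ore12 array of 1 DAT, and became 2 calls without the 1st Col array of 0 DAT. In the comparison by day, 32 to 38 genes were higher in ahk3/ore12 than in Col at 3 DAT whichever array was left out.

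**Figure D3:**
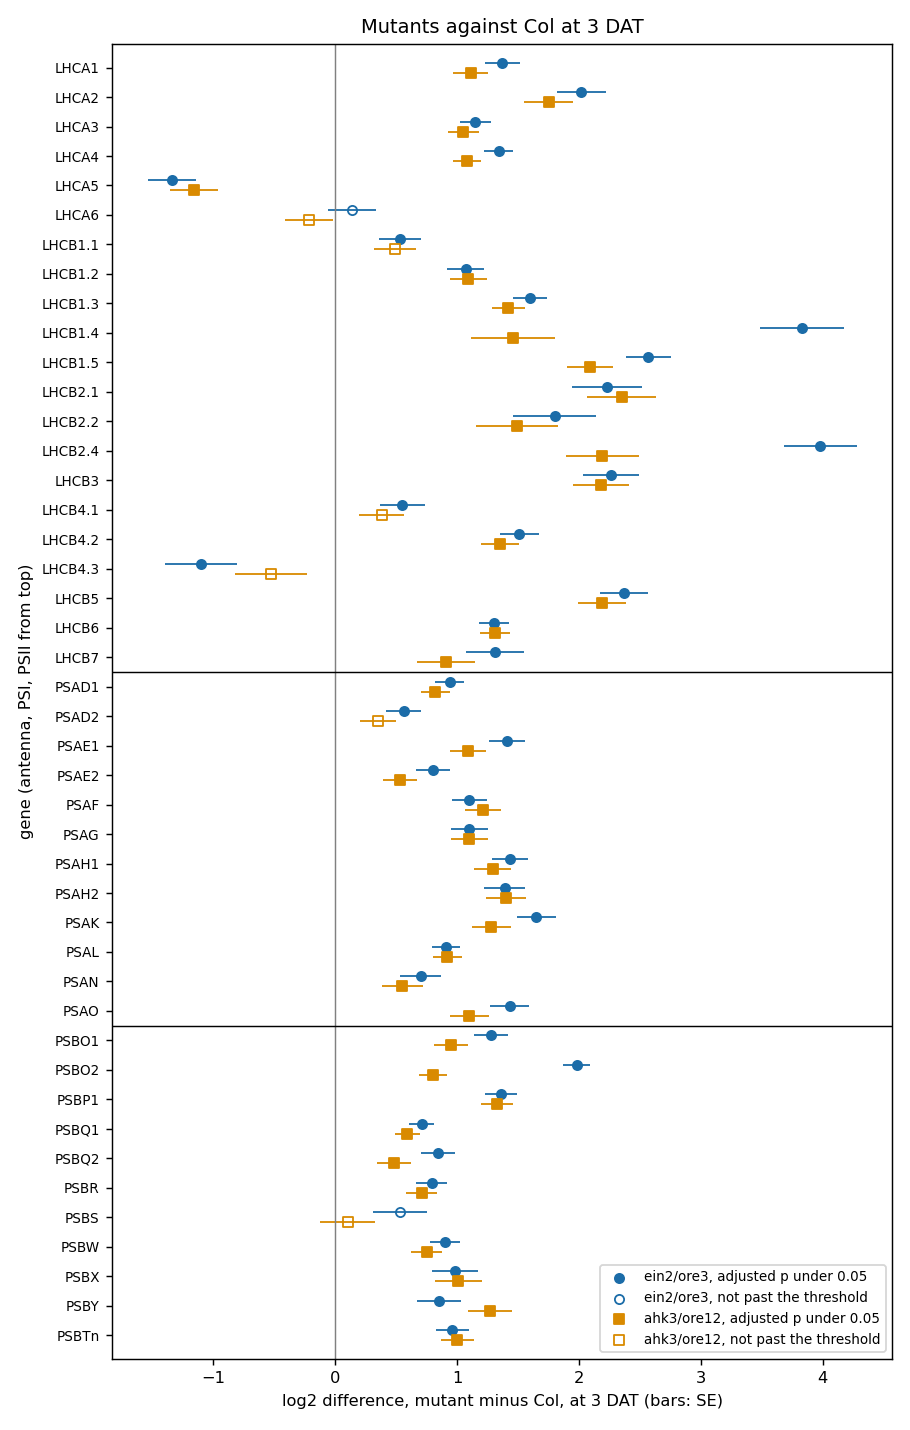
The log2 difference from Col at 3 DAT is shown for each gene, with ein2/ore3 (circles) above ahk3/ore12 (squares) and bars for the SE; filled symbols passed an adjusted p of 0.05 and open ones did not. LHCB2.4 and LHCB1.4 lie at 3.98 and 3.83 in ein2/ore3, and LHCA5 lies below 0 in both mutants.

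The genes furthest above Col in ein2/ore3 at 3 DAT were LHCB2.4, LHCB1.4 and LHCB1.5, all for LHCII trimer proteins. LHCB2.4 in ein2/ore3 read 14.82 and 14.66 at 0 DAT, 14.75 and 14.73 at 1 DAT, 13.88 and 13.61 at 2 DAT, and 12.17 and 12.14 at 3 DAT. LHCB2.4 in ahk3/ore12 read 14.68 and 14.61 at 0 DAT, 12.41 and 13.16 at 1 DAT, 11.52 and 12.22 at 2 DAT, and 10.15 and 10.59 at 3 DAT. LHCB2.4 in Col read 14.83 and 14.77 at 0 DAT, 11.53 and 12.57 at 1 DAT, 8.53 and 8.62 at 2 DAT, and 8.10 and 8.24 at 3 DAT. At 1 DAT both ein2/ore3 arrays lay between those of 0 DAT, and both mutants were above Col without overlap from 2 DAT on. The difference from Col at 3 DAT was 3.98 for ein2/ore3 and 2.19 for ahk3/ore12 (adjusted p 2.6e-07 and 1.1e-04), and at 2 DAT it was 5.18 in ein2/ore3, the largest of any of the 44 genes on any day. LHCB1.4 in ein2/ore3 read 15.29 and 15.08 at 0 DAT, 15.30 and 15.14 at 1 DAT, 15.04 and 14.95 at 2 DAT, and 14.26 and 13.93 at 3 DAT. LHCB1.4 in ahk3/ore12 read 15.32 and 15.13 at 0 DAT, 13.43 and 13.61 at 1 DAT, 12.71 and 13.71 at 2 DAT, and 11.49 and 11.97 at 3 DAT. LHCB1.4 in Col read 15.33 and 15.21 at 0 DAT, 12.62 and 13.38 at 1 DAT, 10.79 and 11.86 at 2 DAT, and 10.11 and 10.42 at 3 DAT. The 3 genotypes did not overlap at 3 DAT, with ein2/ore3 highest and Col lowest. The ein2/ore3 difference from Col was 3.83 (adjusted p 1.3e-06) and that of ahk3/ore12 was 1.46 (adjusted p 0.00639), and the p of ahk3/ore12 was 0.0675 without the 1st Col array of 3 DAT and 0.0718 without the 2nd ahk3/ore12 array.

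LHCB1.5, which lies beside LHCB1.4 on chromosome 2, showed the same order. LHCB1.5 in ein2/ore3 read 15.02 and 14.79 at 0 DAT, 15.05 and 14.81 at 1 DAT, 14.35 and 14.09 at 2 DAT, and 13.73 and 13.47 at 3 DAT. LHCB1.5 in ahk3/ore12 read 15.16 and 15.02 at 0 DAT, 14.52 and 14.36 at 1 DAT, 13.63 and 13.98 at 2 DAT, and 12.95 and 13.29 at 3 DAT. LHCB1.5 in Col read 15.19 and 15.02 at 0 DAT, 14.12 and 14.32 at 1 DAT, 12.29 and 12.69 at 2 DAT, and 11.16 and 10.90 at 3 DAT. Its change at 1 DAT was 0.03 in ein2/ore3, against -0.88 in Col. At 3 DAT it was 2.57 above Col in ein2/ore3 and 2.09 in ahk3/ore12 (adjusted p 1.6e-07 and 2.5e-06). Between the mutants, the LHCB1.5 difference of 0.48 at 3 DAT did not pass the threshold (limma, adjusted p 0.131).

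In ahk3/ore12 the genes furthest above Col were LHCB2.1 (AT2G05100), LHCB5 and LHCB2.4, with LHCB3 at nearly the same distance. LHCB2.1 in ein2/ore3 read 13.81 and 13.80 at 0 DAT, 13.26 and 13.28 at 1 DAT, 12.73 and 12.73 at 2 DAT, and 12.25 and 12.45 at 3 DAT. LHCB2.1 in ahk3/ore12 read 13.92 and 13.92 at 0 DAT, 12.50 and 12.93 at 1 DAT, 12.50 and 12.89 at 2 DAT, and 12.25 and 12.69 at 3 DAT. LHCB2.1 in Col read 13.78 and 13.82 at 0 DAT, 11.74 and 12.70 at 1 DAT, 11.02 and 11.85 at 2 DAT, and 10.07 and 10.17 at 3 DAT. At 3 DAT the arrays of the 2 mutants overlapped each other and lay above Col, with differences of 2.23 in ein2/ore3 and 2.35 in ahk3/ore12. LHCB5 in ein2/ore3 read 14.94 and 14.98 at 0 DAT, 14.79 and 14.81 at 1 DAT, 14.21 and 14.10 at 2 DAT, and 13.81 and 13.79 at 3 DAT. LHCB5 in ahk3/ore12 read 14.99 and 14.95 at 0 DAT, 14.28 and 14.38 at 1 DAT, 13.93 and 14.21 at 2 DAT, and 13.43 and 13.82 at 3 DAT. LHCB5 in Col read 15.00 and 14.98 at 0 DAT, 13.75 and 14.25 at 1 DAT, 12.35 and 13.03 at 2 DAT, and 11.36 and 11.50 at 3 DAT. Its differences from Col were 2.37 in ein2/ore3 and 2.19 in ahk3/ore12 (adjusted p 6.7e-07 and 3.2e-06). At 3 DAT LHCB3 read 13.22 and 13.38 on the ein2/ore3 arrays, 12.89 and 13.54 on those of ahk3/ore12 and 11.05 and 11.03 on those of Col, where the mutants again overlapped and both were above Col (2.26 and 2.18, ein2/ore3 first). The PSI gene with the largest fall, PSAK, had a similar course. PSAK in ein2/ore3 read 14.70 and 14.70 at 0 DAT, 14.04 and 14.03 at 1 DAT, 13.03 and 12.98 at 2 DAT, and 12.22 and 12.31 at 3 DAT. PSAK in ahk3/ore12 read 14.75 and 14.70 at 0 DAT, 13.19 and 13.34 at 1 DAT, 12.38 and 12.80 at 2 DAT, and 11.70 and 12.08 at 3 DAT. PSAK in Col read 14.73 and 14.73 at 0 DAT, 12.49 and 12.84 at 1 DAT, 10.97 and 11.29 at 2 DAT, and 10.58 and 10.65 at 3 DAT. The mutants were above Col without overlap from 1 DAT on, by 1.65 in ein2/ore3 and 1.28 in ahk3/ore12 at 3 DAT.

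**Figure D4:**
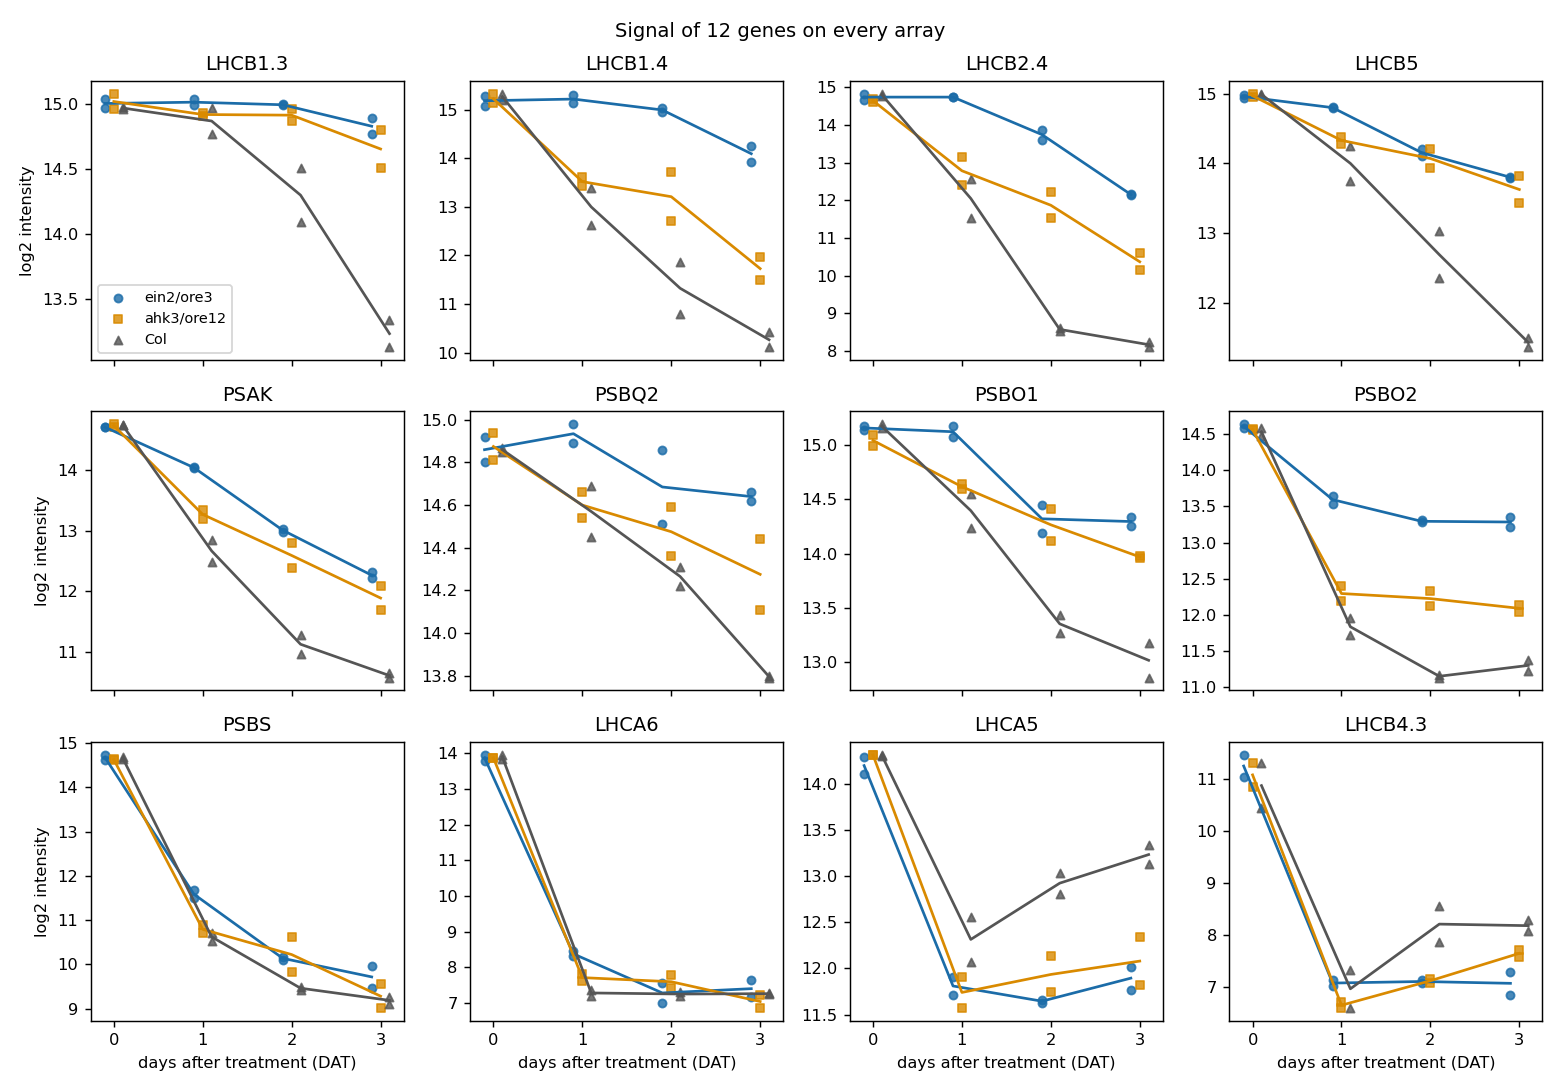
Log2 intensity is plotted against the day for 12 genes, with 1 point per array, lines through the means, small sideways shifts between genotypes and a separate vertical scale in each panel. From 1 DAT on, ein2/ore3 lies above ahk3/ore12 and Col for LHCB1.4, LHCB2.4 and PSBO2, all genotypes drop steeply by 1 DAT for PSBS and LHCA6, and Col lies above both mutants for LHCA5 at 2 and 3 DAT.

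LHCA6 and PSBS were above Col in ein2/ore3 on earlier days of darkness, and at 3 DAT they did not pass the threshold in either mutant. LHCA6 in ein2/ore3 read 13.96 and 13.80 at 0 DAT, 8.45 and 8.31 at 1 DAT, 7.56 and 7.01 at 2 DAT, and 7.16 and 7.65 at 3 DAT. LHCA6 in ahk3/ore12 read 13.87 and 13.88 at 0 DAT, 7.61 and 7.82 at 1 DAT, 7.41 and 7.79 at 2 DAT, and 6.86 and 7.23 at 3 DAT. LHCA6 in Col read 13.84 and 13.97 at 0 DAT, 7.20 and 7.37 at 1 DAT, 7.30 and 7.21 at 2 DAT, and 7.27 and 7.26 at 3 DAT. By 1 DAT the Col change (-6.63 ± 0.197) had reached 99.8% of that at 3 DAT, and in ein2/ore3 it was -5.51 and in ahk3/ore12 -6.17. ein2/ore3 was 1.10 above Col at 1 DAT (adjusted p 0.0015), and ein2/ore3 and Col overlapped from 2 DAT on, while both ahk3/ore12 arrays were above Col at 2 DAT and just below it at 3 DAT, with differences at 3 DAT of 0.14 in ein2/ore3 and -0.22 in ahk3/ore12. At 3 DAT its signal ranked between the 25.5th and 32.8th percentile of the arrays; how far below that the arrays can measure was not tested. PSBS in ein2/ore3 read 14.74 and 14.61 at 0 DAT, 11.68 and 11.49 at 1 DAT, 10.17 and 10.10 at 2 DAT, and 9.96 and 9.47 at 3 DAT. PSBS in ahk3/ore12 read 14.63 and 14.62 at 0 DAT, 10.88 and 10.70 at 1 DAT, 9.83 and 10.61 at 2 DAT, and 9.01 and 9.55 at 3 DAT. PSBS in Col read 14.63 and 14.69 at 0 DAT, 10.53 and 10.71 at 1 DAT, 9.49 and 9.43 at 2 DAT, and 9.11 and 9.26 at 3 DAT. Here the changes at 3 DAT were -4.96 in ein2/ore3, -5.34 in ahk3/ore12 and -5.48 in Col. ein2/ore3 was 0.96 and 0.67 above Col at 1 and 2 DAT (adjusted p 0.00881 and 0.0457) and 0.53 at 3 DAT, which missed the threshold (adjusted p 0.105). ahk3/ore12 was 0.76 above Col at 2 DAT (adjusted p 0.0377) and 0.10 at 3 DAT.

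LHCA5 and LHCB4.3 (AT2G40100) ran the other way. LHCA5 in ein2/ore3 read 14.29 and 14.11 at 0 DAT, 11.91 and 11.71 at 1 DAT, 11.63 and 11.66 at 2 DAT, and 12.02 and 11.77 at 3 DAT. LHCA5 in ahk3/ore12 read 14.31 and 14.32 at 0 DAT, 11.91 and 11.57 at 1 DAT, 12.13 and 11.74 at 2 DAT, and 12.34 and 11.82 at 3 DAT. LHCA5 in Col read 14.32 and 14.30 at 0 DAT, 12.56 and 12.07 at 1 DAT, 13.04 and 12.81 at 2 DAT, and 13.34 and 13.13 at 3 DAT. After a fall on day 1 in all genotypes, the Col arrays were higher again at 2 and 3 DAT, and no mutant array reached them. The difference from Col at 3 DAT was -1.34 ± 0.199 for ein2/ore3 and -1.16 ± 0.199 for ahk3/ore12 (adjusted p 1.3e-04 and 6.7e-04), and at 2 DAT -1.29 and -0.99, against 10.7% and 8.35% of all genes called lower in ein2/ore3 and ahk3/ore12 at 3 DAT. Both transcript variants of LHCA5 fell by the same amount in Col over 3 d (-1.07 and -1.08). LHCB4.3, another CP29 gene that is also called LHCB8, had the same form at a dimmer signal. At 3 DAT LHCB4.3 ranked between percentiles 22.1 and 41.4 of the arrays, and LHCA5 between 80.3 and 94.5. How far below that of LHCB4.3 the arrays can measure was not tested. LHCB4.3 in ein2/ore3 read 11.02 and 11.46 at 0 DAT, 7.02 and 7.14 at 1 DAT, 7.13 and 7.09 at 2 DAT, and 7.30 and 6.85 at 3 DAT. LHCB4.3 in ahk3/ore12 read 10.84 and 11.30 at 0 DAT, 6.60 and 6.71 at 1 DAT, 7.09 and 7.16 at 2 DAT, and 7.72 and 7.58 at 3 DAT. LHCB4.3 in Col read 10.44 and 11.29 at 0 DAT, 7.33 and 6.61 at 1 DAT, 8.56 and 7.86 at 2 DAT, and 8.28 and 8.08 at 3 DAT. It was 1.10 below Col in ein2/ore3 at 3 DAT (adjusted p 0.012), and the adjusted p was 0.0905 without the 1st Col array and 0.109 without the 2nd ein2/ore3 array of that day. In ahk3/ore12 the difference was -1.08 at 2 DAT (adjusted p 0.0264) and -0.53 at 3 DAT (adjusted p 0.223). The lower calls at 2 DAT were LHCA5 and LHCB4.3 in both mutants. In ahk3/ore12 neither held without the 1st Col array or the 2nd ahk3/ore12 array of 2 DAT and 1 held without the 1st ahk3/ore12 array, and in ein2/ore3 1 held without the 1st Col array or the 2nd ein2/ore3 array of that day.

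Several subunits are encoded by more than 1 gene, and the copies did not always change alike. Their coding sequences can be close to identical, above all in LHCB1, and hybridization of one transcript to the probes of another copy was not tested. The difference between the copies of a subunit was not tested either. The 3 neighbouring LHCB1 genes on chromosome 1 split in the data: LHCB1.1 (AT1G29920) fell by 3.90 in Col over 3 d, LHCB1.2 (AT1G29910) by 1.52 and LHCB1.3 (AT1G29930) by 1.74. At 3 DAT LHCB1.1 ranked between percentiles 25.2 and 36.0 of the arrays, and how far below that the arrays can measure was not tested. LHCB1.2 and LHCB1.3 were above percentile 99 at 0 DAT, where a difference can appear smaller than it was. The part of these positions on the scale in the split was not tested. LHCB1.3 in ein2/ore3 read 14.97 and 15.04 at 0 DAT, 15.04 and 14.99 at 1 DAT, 15.00 and 14.99 at 2 DAT, and 14.77 and 14.89 at 3 DAT. LHCB1.3 in ahk3/ore12 read 15.08 and 14.96 at 0 DAT, 14.91 and 14.93 at 1 DAT, 14.87 and 14.96 at 2 DAT, and 14.51 and 14.80 at 3 DAT. LHCB1.3 in Col read 14.98 and 14.96 at 0 DAT, 14.77 and 14.97 at 1 DAT, 14.09 and 14.51 at 2 DAT, and 13.13 and 13.34 at 3 DAT. All ein2/ore3 arrays lay between 14.77 and 15.04, and the arrays of both mutants were above both Col arrays at 2 and 3 DAT. LHCB1.2 in ein2/ore3 read 15.44 and 15.47 at 0 DAT, 15.22 and 15.29 at 1 DAT, 15.04 and 15.19 at 2 DAT, and 14.97 and 14.87 at 3 DAT. LHCB1.2 in ahk3/ore12 read 15.39 and 15.33 at 0 DAT, 15.09 and 15.18 at 1 DAT, 14.98 and 15.16 at 2 DAT, and 14.88 and 14.98 at 3 DAT. LHCB1.2 in Col read 15.30 and 15.43 at 0 DAT, 15.04 and 15.40 at 1 DAT, 14.43 and 14.82 at 2 DAT, and 13.67 and 14.01 at 3 DAT. At 1 DAT both mutants overlapped with Col, and at 3 DAT all mutant arrays were above Col, by 1.07 in ein2/ore3 and 1.09 in ahk3/ore12 (adjusted p 8.4e-05 and 1.2e-04). LHCB1.1 in ein2/ore3 read 10.84 and 11.23 at 0 DAT, 8.98 and 8.96 at 1 DAT, 7.66 and 7.66 at 2 DAT, and 7.53 and 7.75 at 3 DAT. LHCB1.1 in ahk3/ore12 read 10.83 and 10.93 at 0 DAT, 8.31 and 8.38 at 1 DAT, 7.59 and 8.02 at 2 DAT, and 7.41 and 7.78 at 3 DAT. LHCB1.1 in Col read 11.14 and 10.88 at 0 DAT, 8.51 and 8.27 at 1 DAT, 7.83 and 7.94 at 2 DAT, and 7.06 and 7.16 at 3 DAT. LHCB1.1 thus fell in every genotype by 1 DAT. On that day it was 0.57 above Col in ein2/ore3 (limma, adjusted p 0.036) and at -0.05 in ahk3/ore12, which did not pass. At 2 DAT LHCB1.1 was above Col in no mutant (-0.23 in ein2/ore3 and -0.09 in ahk3/ore12). At 3 DAT its differences were 0.53 in ein2/ore3 (adjusted p 0.0319) and 0.49 in ahk3/ore12 (adjusted p 0.051). The ein2/ore3 call was lost with median-centred arrays (adjusted p 0.0526), with an intensity trend in the variance (0.0632) and without any one of the 4 arrays compared (0.052 to 0.192).

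In the LHCB2 family, the change of LHCB2.2 in Col lay between those of LHCB2.1 and LHCB2.4 at 2 and 3 DAT. LHCB2.2 in ein2/ore3 read 13.36 and 13.20 at 0 DAT, 12.06 and 12.32 at 1 DAT, 11.35 and 11.43 at 2 DAT, and 10.51 and 10.93 at 3 DAT. LHCB2.2 in ahk3/ore12 read 13.31 and 13.34 at 0 DAT, 10.91 and 11.47 at 1 DAT, 10.55 and 11.43 at 2 DAT, and 9.96 and 10.85 at 3 DAT. LHCB2.2 in Col read 13.42 and 13.40 at 0 DAT, 10.11 and 10.96 at 1 DAT, 9.21 and 9.68 at 2 DAT, and 8.76 and 9.08 at 3 DAT. The ein2/ore3 arrays were above both Col arrays from 1 DAT on, and those of ahk3/ore12 from 2 DAT on. The differences at 3 DAT were 1.80 for ein2/ore3 and 1.49 for ahk3/ore12. The ahk3/ore12 difference had an adjusted p of 0.00501, of 0.0577 without the 1st Col array and of 0.0822 without the 2nd ahk3/ore12 array of 3 DAT. At 1 DAT in ein2/ore3, LHCB2.4 had changed by -0.00, LHCB2.1 by -0.53 and LHCB2.2 by -1.09.

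The CP29 genes other than LHCB4.3 moved in the direction of the antenna as a whole. LHCB4.2 (AT3G08940) in ein2/ore3 read 16.08 and 15.95 at 0 DAT, 15.86 and 15.81 at 1 DAT, 15.33 and 15.39 at 2 DAT, and 15.09 and 15.04 at 3 DAT. LHCB4.2 in ahk3/ore12 read 16.07 and 16.01 at 0 DAT, 15.35 and 15.46 at 1 DAT, 15.00 and 15.45 at 2 DAT, and 14.75 and 15.05 at 3 DAT. LHCB4.2 in Col read 16.09 and 16.07 at 0 DAT, 14.96 and 15.34 at 1 DAT, 14.09 and 14.40 at 2 DAT, and 13.54 and 13.56 at 3 DAT. For LHCB4.2 the mutant arrays were above Col at 2 and 3 DAT, and at 3 DAT the differences were 1.51 in ein2/ore3 and 1.35 in ahk3/ore12 (adjusted p 5.4e-06 and 2.9e-05). LHCB4.1 in ein2/ore3 read 14.95 and 14.82 at 0 DAT, 14.43 and 14.61 at 1 DAT, 14.45 and 14.59 at 2 DAT, and 14.11 and 14.29 at 3 DAT. LHCB4.1 in ahk3/ore12 read 14.77 and 14.64 at 0 DAT, 13.72 and 14.29 at 1 DAT, 14.29 and 14.67 at 2 DAT, and 13.98 and 14.09 at 3 DAT. LHCB4.1 in Col read 14.90 and 14.79 at 0 DAT, 13.86 and 14.32 at 1 DAT, 13.99 and 14.14 at 2 DAT, and 13.64 and 13.67 at 3 DAT. LHCB4.1 stayed highest in ein2/ore3 at 3 DAT, by 0.55 over Col (adjusted p 0.0423), and the ahk3/ore12 difference of 0.38 did not pass (adjusted p 0.156). Its ein2/ore3 call was lost with median-centred arrays (adjusted p 0.0748), without any one of the 4 arrays compared (0.0777 to 0.205) and without any one of 12 others (0.051 to 0.0526).

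In PSI, the PSAD, PSAE and PSAH subunits each have a pair of genes. PSAD1 in ein2/ore3 read 14.57 and 14.55 at 0 DAT, 14.34 and 14.24 at 1 DAT, 14.04 and 13.96 at 2 DAT, and 13.76 and 13.79 at 3 DAT. PSAD1 in ahk3/ore12 read 14.70 and 14.57 at 0 DAT, 14.07 and 14.18 at 1 DAT, 13.82 and 13.90 at 2 DAT, and 13.66 and 13.65 at 3 DAT. PSAD1 in Col read 14.52 and 14.59 at 0 DAT, 13.73 and 14.10 at 1 DAT, 13.31 and 13.56 at 2 DAT, and 12.79 and 12.88 at 3 DAT. The mutant arrays were above Col at 2 and 3 DAT, with 0.94 in ein2/ore3 and 0.82 in ahk3/ore12 at 3 DAT. PSAD2 in ein2/ore3 read 14.81 and 14.88 at 0 DAT, 14.32 and 14.43 at 1 DAT, 14.04 and 14.14 at 2 DAT, and 13.86 and 13.98 at 3 DAT. PSAD2 in ahk3/ore12 read 14.96 and 14.81 at 0 DAT, 13.95 and 14.34 at 1 DAT, 13.81 and 14.02 at 2 DAT, and 13.77 and 13.66 at 3 DAT. PSAD2 in Col read 14.79 and 14.92 at 0 DAT, 13.92 and 14.31 at 1 DAT, 13.63 and 13.71 at 2 DAT, and 13.34 and 13.39 at 3 DAT. For PSAD2 the distance was smaller, 0.56 in ein2/ore3 (adjusted p 0.00979) and 0.35 in ahk3/ore12 (adjusted p 0.0995), although no array of either mutant overlapped with Col at 3 DAT. The ein2/ore3 call was lost without the 1st Col array (adjusted p 0.0652) or the 2nd ein2/ore3 array (0.0716) of that day. PSAE1 in ein2/ore3 read 14.91 and 14.89 at 0 DAT, 14.74 and 14.62 at 1 DAT, 13.85 and 13.97 at 2 DAT, and 13.42 and 13.41 at 3 DAT. PSAE1 in ahk3/ore12 read 14.98 and 14.82 at 0 DAT, 13.95 and 14.13 at 1 DAT, 13.59 and 13.71 at 2 DAT, and 13.01 and 13.16 at 3 DAT. PSAE1 in Col read 14.98 and 14.98 at 0 DAT, 13.58 and 14.04 at 1 DAT, 12.39 and 12.75 at 2 DAT, and 12.06 and 11.93 at 3 DAT. PSAE1, for the other ferredoxin-side subunit, was 1.41 and 1.09 above Col at 3 DAT, ein2/ore3 first. PSAE2 in ein2/ore3 read 13.75 and 13.59 at 0 DAT, 13.67 and 13.60 at 1 DAT, 13.20 and 13.23 at 2 DAT, and 12.98 and 12.81 at 3 DAT. PSAE2 in ahk3/ore12 read 13.85 and 13.73 at 0 DAT, 13.25 and 13.22 at 1 DAT, 13.06 and 13.21 at 2 DAT, and 12.52 and 12.73 at 3 DAT. PSAE2 in Col read 13.86 and 13.76 at 0 DAT, 12.91 and 13.28 at 1 DAT, 12.31 and 12.61 at 2 DAT, and 12.19 and 12.00 at 3 DAT. PSAE2 changed by -0.04 in ein2/ore3 at 1 DAT, and its distance to Col at 3 DAT was 0.80 for ein2/ore3 and 0.53 for ahk3/ore12. The ahk3/ore12 call (adjusted p 0.0126) was lost without the 2nd Col array (0.097) or the 2nd ahk3/ore12 array (0.116) of 3 DAT.

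The PSAH pair stood at similar distances above Col at 3 DAT, although PSAH2 fell further than PSAH1 in every genotype. PSAH1 changed by -1.59, -1.68 and -3.14 over 3 d in ein2/ore3, ahk3/ore12 and Col, and PSAH2 by -2.28, -2.21 and -3.53. PSAH1 in ein2/ore3 read 14.42 and 14.28 at 0 DAT, 14.20 and 13.92 at 1 DAT, 13.36 and 13.30 at 2 DAT, and 12.84 and 12.69 at 3 DAT. PSAH1 in ahk3/ore12 read 14.28 and 14.34 at 0 DAT, 13.61 and 13.55 at 1 DAT, 13.09 and 13.24 at 2 DAT, and 12.52 and 12.74 at 3 DAT. PSAH1 in Col read 14.59 and 14.36 at 0 DAT, 13.16 and 13.51 at 1 DAT, 12.05 and 12.35 at 2 DAT, and 11.40 and 11.27 at 3 DAT. PSAH1 at 3 DAT was 1.43 above Col in ein2/ore3 and 1.29 in ahk3/ore12. PSAH2 in ein2/ore3 read 14.78 and 14.60 at 0 DAT, 13.74 and 13.77 at 1 DAT, 12.89 and 13.01 at 2 DAT, and 12.32 and 12.50 at 3 DAT. PSAH2 in ahk3/ore12 read 14.73 and 14.54 at 0 DAT, 13.22 and 13.56 at 1 DAT, 12.69 and 13.00 at 2 DAT, and 12.37 and 12.48 at 3 DAT. PSAH2 in Col read 14.54 and 14.56 at 0 DAT, 12.82 and 13.31 at 1 DAT, 11.60 and 11.85 at 2 DAT, and 10.99 and 11.05 at 3 DAT. PSAH2 at 3 DAT was above Col by 1.39 for ein2/ore3 and 1.40 for ahk3/ore12. For both genes the mutants overlapped each other at 3 DAT and lay above Col without overlap.

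In PSII, the PSBO genes differed in their course. PSBO2 in ein2/ore3 read 14.64 and 14.58 at 0 DAT, 13.54 and 13.65 at 1 DAT, 13.31 and 13.28 at 2 DAT, and 13.35 and 13.22 at 3 DAT. PSBO2 in ahk3/ore12 read 14.56 and 14.57 at 0 DAT, 12.19 and 12.40 at 1 DAT, 12.12 and 12.33 at 2 DAT, and 12.04 and 12.14 at 3 DAT. PSBO2 in Col read 14.59 and 14.48 at 0 DAT, 11.72 and 11.95 at 1 DAT, 11.17 and 11.13 at 2 DAT, and 11.38 and 11.22 at 3 DAT. PSBO2 in ein2/ore3 fell on day 1 and then stayed between 13.22 and 13.65, above all ahk3/ore12 and Col arrays of the same day. It was 1.98 above Col in ein2/ore3 and 0.80 in ahk3/ore12 at 3 DAT (adjusted p 2.7e-08 and 1.6e-04). PSBO1 in ein2/ore3 read 15.17 and 15.14 at 0 DAT, 15.17 and 15.07 at 1 DAT, 14.45 and 14.19 at 2 DAT, and 14.34 and 14.25 at 3 DAT. PSBO1 in ahk3/ore12 read 14.99 and 15.09 at 0 DAT, 14.64 and 14.59 at 1 DAT, 14.12 and 14.41 at 2 DAT, and 13.98 and 13.96 at 3 DAT. PSBO1 in Col read 15.15 and 15.19 at 0 DAT, 14.24 and 14.55 at 1 DAT, 13.27 and 13.44 at 2 DAT, and 13.18 and 12.86 at 3 DAT. At 1 DAT PSBO1 had changed by -0.04 in ein2/ore3, against -0.77 in Col, from a 0 DAT signal near the top of the scale, whereas PSBO2 had changed by -1.02 in ein2/ore3 and -2.70 in Col. At 3 DAT PSBO1 was above Col by 1.28 for ein2/ore3 and 0.95 for ahk3/ore12.

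The PSBQ genes showed the smallest and a middle fall. PSBQ2 in ein2/ore3 read 14.92 and 14.80 at 0 DAT, 14.98 and 14.89 at 1 DAT, 14.86 and 14.51 at 2 DAT, and 14.66 and 14.62 at 3 DAT. PSBQ2 in ahk3/ore12 read 14.94 and 14.81 at 0 DAT, 14.54 and 14.66 at 1 DAT, 14.36 and 14.59 at 2 DAT, and 14.11 and 14.44 at 3 DAT. PSBQ2 in Col read 14.87 and 14.85 at 0 DAT, 14.45 and 14.69 at 1 DAT, 14.22 and 14.31 at 2 DAT, and 13.79 and 13.80 at 3 DAT. At 3 DAT every mutant array of PSBQ2 was above Col, by 0.84 for ein2/ore3 and 0.48 for ahk3/ore12. The ahk3/ore12 call (adjusted p 0.0204) was lost without either Col array or the 2nd ahk3/ore12 array of that day (adjusted p 0.0728 to 0.197). PSBQ1 in ein2/ore3 read 15.82 and 15.79 at 0 DAT, 15.21 and 15.24 at 1 DAT, 14.61 and 14.64 at 2 DAT, and 14.21 and 14.25 at 3 DAT. PSBQ1 in ahk3/ore12 read 15.84 and 15.74 at 0 DAT, 14.98 and 15.13 at 1 DAT, 14.39 and 14.53 at 2 DAT, and 14.09 and 14.13 at 3 DAT. PSBQ1 in Col read 15.67 and 15.81 at 0 DAT, 14.64 and 14.85 at 1 DAT, 13.91 and 14.08 at 2 DAT, and 13.52 and 13.53 at 3 DAT. PSBQ1 fell in every genotype at each step, and was 0.71 and 0.59 above Col at 3 DAT in ein2/ore3 and ahk3/ore12. PSBR in ein2/ore3 read 14.89 and 14.82 at 0 DAT, 14.75 and 14.62 at 1 DAT, 14.48 and 14.42 at 2 DAT, and 14.32 and 14.19 at 3 DAT. PSBR in ahk3/ore12 read 15.02 and 14.84 at 0 DAT, 14.62 and 14.53 at 1 DAT, 14.27 and 14.48 at 2 DAT, and 14.17 and 14.19 at 3 DAT. PSBR in Col read 14.90 and 14.89 at 0 DAT, 14.34 and 14.54 at 1 DAT, 13.65 and 14.03 at 2 DAT, and 13.49 and 13.45 at 3 DAT. PSBR, which helps to hold the extrinsic proteins, was above Col without overlap at 2 and 3 DAT, by 0.79 in ein2/ore3 and 0.71 in ahk3/ore12 at 3 DAT. PSBTn in ein2/ore3 read 14.54 and 14.53 at 0 DAT, 13.64 and 13.71 at 1 DAT, 12.69 and 12.67 at 2 DAT, and 11.98 and 12.06 at 3 DAT. PSBTn in ahk3/ore12 read 14.51 and 14.49 at 0 DAT, 13.11 and 13.23 at 1 DAT, 12.40 and 12.72 at 2 DAT, and 11.95 and 12.17 at 3 DAT. PSBTn in Col read 14.51 and 14.56 at 0 DAT, 12.49 and 12.92 at 1 DAT, 11.27 and 11.37 at 2 DAT, and 11.11 and 11.02 at 3 DAT. For PSBTn the mutants overlapped each other from 2 DAT on and lay above Col, by 1.36 and 1.24 at 2 DAT and 0.96 and 1.00 at 3 DAT, ein2/ore3 first.

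The PSI and PSII genes with no values by array above were also higher in both mutants than in Col at 3 DAT. In ein2/ore3 their distance above Col was 1.10 for PSAF, 1.10 for PSAG, 0.91 for PSAL, 0.70 for PSAN, 1.43 for PSAO, 1.36 for PSBP1, 0.90 for PSBW and 0.98 for PSBX. In ahk3/ore12 it was 1.21, 1.10, 0.92, 0.55, 1.10, 1.33, 0.75 and 1.01 for the same genes in that order. PSBY was higher by 0.85 in ein2/ore3 and 1.27 in ahk3/ore12. PSAN was the one of these with calls that rested on single arrays. Its ein2/ore3 call was lost without the 1st ein2/ore3 or the 2nd Col array (adjusted p 0.0924 and 0.0821), and its ahk3/ore12 call without the 1st ahk3/ore12 or the 2nd Col array (adjusted p 0.225 and 0.214). In the antenna, LHCA1 to LHCA4 were 1.15 to 2.02 above Col in ein2/ore3 and 1.05 to 1.75 in ahk3/ore12, LHCB6 was 1.30 and 1.31, and LHCB7 was 1.31 and 0.91 above Col. The LHCB7 call in ahk3/ore12 (adjusted p 0.0119) was lost without either Col array or the 2nd ahk3/ore12 array of 3 DAT (adjusted p 0.0565 to 0.0818).

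The mutants were also compared with each other, in the same fit to all 24 arrays. No gene differed at 0 DAT (limma; 0 also at an unadjusted p under 0.05, with 0.162% of all genes called higher and 0.242% lower in ein2/ore3). At 1, 2 and 3 DAT, 13, 3 and 3 of the 44 were higher in ein2/ore3 than in ahk3/ore12, when 7.02%, 3.89% and 4.86% of all genes were called higher. None was lower (2.32%, 6.45% and 5.46% of all genes), and at an unadjusted p under 0.05, 0, 0 and 1 were. The median differences were 0.43, 0.13 and 0.16. The 3 genes at 3 DAT were LHCB1.4, LHCB2.4 and PSBO2, with 2.36, 1.79 and 1.19 (adjusted p 4.5e-04, 0.00134 and 1.1e-05). For the other 41 genes the difference at 3 DAT lay between -0.58 and 0.48, and a p above the threshold does not show that the mutants were alike. The count at 1 DAT was 2 and 6 without the 1st or 2nd ein2/ore3 array, and 4 and 7 without the 1st or 2nd ahk3/ore12 array of that day.

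The change since 0 DAT was also compared directly, which sets apart any difference already present at 0 DAT. This comparison shares its arrays with that of the mutants against Col on each day. The change in ein2/ore3 was less negative than that in Col for 17, 32 and 37 of the 44 genes at 1, 2 and 3 DAT (4.61%, 6.8% and 10.4% of all genes), and more negative for 0, 2 and 2 (1.1%, 4.35% and 5.68%). The count of 17 at 1 DAT was between 4 and 11 without a single ein2/ore3 or Col array of 0 DAT, without either ein2/ore3 array of 1 DAT or without the 1st Col array of 1 DAT, and that of 32 was 21 without the 1st Col array of 2 DAT. The more negative genes were LHCA5 and LHCB4.3 on both days. At 2 DAT neither was called without the 1st Col array of 0 or 2 DAT, and 1 was without either ein2/ore3 array of 0 DAT or the 2nd of 2 DAT. At 3 DAT 1 was called without the 1st Col array of 0 or 3 DAT or without the 2nd ein2/ore3 array of 0 or 3 DAT. In ahk3/ore12 the change was less negative for 0, 24 and 32 genes (0.0306%, 4.73% and 9.96% of all genes), and more negative for 0, 0 and 1 (0.0123%, 0.972% and 3.34%), which was LHCA5. At 1 DAT 5 genes passed an unadjusted p of 0.05 in ahk3/ore12. The count of 24 was 10 without the 2nd ahk3/ore12 array of 2 DAT, 13 without the 1st Col array of 2 DAT, and 14 without the 1st Col or the 2nd ahk3/ore12 array of 0 DAT. The LHCA5 call at 3 DAT was lost without the 1st Col or the 2nd ahk3/ore12 array of that day.

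Other genes of the photosynthetic membrane were counted for comparison. Of 14 genes for electron carriers and ATP synthase subunits, 13 fell in Col at 3 DAT with a median of -2.38 (19.3% of all genes fell), and 11 were higher in ein2/ore3 than in Col (median 0.88) and 11 in ahk3/ore12 (median 0.85), when 14.4% and 14.7% of all genes were. The exception to the fall was PGRL1B, one of a pair of cyclic electron flow genes, with -0.16, while PGRL1A changed by -4.59. Of 13 genes for assembly and regulation of the photosystems, 13 fell in Col (median -1.50), and 6 were higher in ein2/ore3 (median 0.36) and 7 in ahk3/ore12 (median 0.43), against the same shares of all genes. PSB27, a PSII assembly gene, was 2.45 and 1.66 above Col in ein2/ore3 and ahk3/ore12, and STN7, the kinase gene of state transitions, was at 0.04 and -0.14. The LHC relatives OHP1 and OHP2 fell by 5.55 and 2.78 in Col. The early light-induced gene ELIP1 fell by 1.99, and ELIP2 was at 0.26. OHP1 was higher in both mutants (2.24 and 2.26), OHP2 was higher in ahk3/ore12 (0.75, adjusted p 0.0235) and at 0.19 in ein2/ore3 (adjusted p 0.676), and ELIP1 and ELIP2 were lower in ahk3/ore12 at -0.66 and -0.74 (adjusted p 0.0282 and 0.0191).

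A gene value sums its transcript variants, and 36 of the 44 genes had a single variant. In Col the 4th variant of LHCA1, 18.6% of its summed signal at 0 DAT, changed by -4.39 over 3 d, and the other variants by -2.71 to -2.61. The 2nd variant of LHCA3, 10.1% of the sum, changed by -3.62, and the 1st by -1.76. The 2nd variant of PSBS held 1.15% of the sum and changed by -1.48, and the 1st by -5.74. The variants of LHCA5, LHCB4.2, PSAN, PSBP1 and PSBQ1 differed by at most 0.08 in this change.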

How the data were processed

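RNA from 24 leaf samples was hybridised by the authors to NimbleGen Arabidopsis arrays of 1 colour, 1 sample per array. Per the authors' methods the scans were read with NimbleScan and summarised by robust multi-array averaging (RMA) with quantile normalization, and the deposited files of each array hold 1 background-corrected, normalized intensity per transcript variant, from up to 4 probes. Log2 values of the same arrays per gene, in the deposited table of the whole series, served as an alternative. Here the intensities of the 37118 variants were summed by locus and log2-transformed, giving 32627 genes, and these values differed from the deposited log2 values by at most 0.00514. Locus names were turned into symbols with the RefSeq gene table, and no coordinates or sequences were used.

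Groups came from the sample titles. The 2 arrays of a condition are biological replicates in the authors' terms, each replicate number is also 1 slide, and their number limits the precision. Condition means were fitted to all 24 arrays with limma (version 3.58.1, R 4.3.3, lmFit and eBayes) and p-values adjusted by the Benjamini-Hochberg method over all 32627 genes, with a threshold of 0.05. The contrasts were the change since 0 DAT, each mutant against Col, ein2/ore3 against ahk3/ore12, and the mutant's minus Col's change. An F-test over the Col arrays used a threshold of 0.01, and a genotype term was fitted beside the day. The script was tested on simulated data with known changes. Alternatives were the deposited log2 table, the brightest variant, median centring, quantile normalization, no dim genes (the lowest 25%), another threshold (0.01, and 0.05 over time), the replicate number as a block, an intensity trend, fewer arrays in the fit, a plain F-test, single slides and leaving out each array. Pairing was checked by correlating the deviations of same-numbered arrays from their condition means. The median r was 0.302 over 66 pairs of conditions, with 47 above 0.1. Among the 6 pairs of Col conditions all 6 were above 0.1 (0.341 to 0.818). As not every pair was, the numbers were not taken to pair the arrays over the whole series, and the values with the replicate block and within each slide are given as well.

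The 44 genes, the lists of other photosynthetic genes and the cell type markers (mesophyll, phloem, guard cell, epidermis and senescence) were chosen with earlier results of these data known. Values on every array are given for the 3 genes with the largest and the 2 with the smallest fall in Col in each complex, the 3 highest and 3 lowest against Col in each mutant, and genes with copies of the same subunit. LHCB3 is shown in part beside these, chosen after its values were seen. A count of promoter motifs was not run.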

Additional observations from a re-analysis of the deposited data

Results flagged for a closer look

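The change since 0 DAT differed between a mutant and Col by a direct test of that difference (limma, adjusted p under 0.05) for many of the 44 genes. Between ein2/ore3 and Col it was less negative in ein2/ore3 for 17 genes at 1 DAT, 32 at 2 DAT and 37 at 3 DAT, and more negative for 2 at 2 DAT and 2 at 3 DAT. Of all genes, 4.61%, 6.8% and 10.4% were less negative on the 3 days, and 4.35% and 5.68% more negative at 2 and 3 DAT. Leaving out single arrays gave 4 to 23 less negative genes at 1 DAT, 21 to 35 at 2 DAT and 34 to 38 at 3 DAT, and 0 to 2 and 1 to 2 more negative ones at 2 and 3 DAT. The largest such differences at 3 DAT were 4.03 ± 0.425 (SE) for LHCB2.4, 3.92 ± 0.489 for LHCB1.4 and 2.77 ± 0.261 for LHCB1.5 (adjusted p 2.0e-05, 8.5e-05 and 8.2e-06). The genes on the other side were LHCA5 with -1.23 ± 0.282 and LHCB4.3 with -1.47 ± 0.42 (adjusted p 0.00726 and 0.0255).

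Between ahk3/ore12 and Col the change was less negative in ahk3/ore12 for 24 genes at 2 DAT and 32 at 3 DAT, and more negative for 1 at 3 DAT, when 4.73% and 9.96% of all genes were less negative on these days and 3.34% more negative at 3 DAT. Leaving out single arrays gave 10 to 28 less negative genes at 2 DAT and 27 to 34 at 3 DAT, and 0 to 1 more negative at 3 DAT. LHCB2.4 with 2.35 ± 0.425, LHCB2.1 with 2.24 ± 0.402 and LHCB5 with 2.21 ± 0.281 stood highest (adjusted p 0.0022, 0.0021 and 1.9e-04), and LHCA5 with -1.16 ± 0.282 was the lower one (adjusted p 0.0135). Both sets of differences use the same Col arrays.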

How the results depend on the processing

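Over 59 counts and 1947 combinations with an alternative, 101 moved, 71 of them by leaving out 1 array. Single genes were followed only where they were called at 3 DAT, in the Col change, each mutant against Col or ein2/ore3 against ahk3/ore12. A reversal could only be seen in those values, and none of them reversed. Of these 127 gene values, 11 lost their call under at least 1 alternative. Genes without a call were not followed, and for ein2/ore3 against ahk3/ore12 at 3 DAT the slides agreed in direction for 27 of the 44. Counts below are of the 44 genes and the causes were not tested. With median centring, ein2/ore3's change at 2 DAT was more negative than Col's for 1 gene. After quantile normalization 1 gene was lower in ein2/ore3 and 1 in ahk3/ore12 than in Col at 2 DAT, and 1 in each for the change at 2 DAT; without dim genes that last count was 1 in ahk3/ore12. At an adjusted p of 0.01, the ahk3/ore12 term called 0 higher and 0 lower; ein2/ore3 was above Col for 21 at 1 DAT and below it for 1 at 2 and 1 at 3 DAT, and ahk3/ore12 below it for 1 at 2 DAT. ein2/ore3 was above ahk3/ore12 for 5 at 1 DAT. The change was less negative than Col's in ein2/ore3 for 4 at 1 DAT and more negative for 0 at 2 and 1 at 3 DAT, and in ahk3/ore12 it was less negative for 14 at 2 DAT and more negative for 0 at 3 DAT. An intensity trend gave 1 higher in ahk3/ore12 at 1 DAT and 1 more negative change at 2 DAT. With fewer arrays in the fit, 1 was lower in ein2/ore3 and 1 in ahk3/ore12 at 2 DAT, and ein2/ore3's change was less negative for 9 at 1 DAT and more negative for 1 at 2 and 1 at 3 DAT. The plain F-test called 25 over time in Col and 5 higher in ahk3/ore12.

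With the replicate number as a block, ein2/ore3 was below Col for 1 gene at 1 DAT, ahk3/ore12 above it for 1 at 1 DAT, and ahk3/ore12's change more negative for 1 at 2 DAT, and no other count moved by over 1.5 times. In the check of pairing, 47 of 66 correlations were above 0.1, and all 6 within Col, where the time course with the block called 43 genes, as without it.

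When single arrays were left out, the Col time course called 23 to 44 and the ahk3/ore12 term 0 to 35 higher and 0 to 2 lower. The fall in ein2/ore3 at 1 DAT was called for 12 to 19. ein2/ore3 was above Col for 17 to 34 and below it for 0 to 1 at 1 DAT, and below it for 1 to 2 at 2 DAT and 1 to 2 at 3 DAT. ahk3/ore12 was above Col for 0 to 1 at 1 DAT and 21 to 37 at 2 DAT, and below it for 0 to 2 at 2 DAT. ein2/ore3 was above ahk3/ore12 for 2 to 14 at 1 DAT. The change in ein2/ore3 was less negative than Col's for 4 to 23 at 1 DAT and 21 to 35 at 2 DAT, and more negative for 0 to 2 at 2 DAT and 1 to 2 at 3 DAT. The change in ahk3/ore12 was less negative for 10 to 28 at 2 DAT, and more negative for 0 to 1 at 2 DAT and 0 to 1 at 3 DAT. The 0 DAT signals near the top of the scale limit how exactly the size of a fall is known.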
